A study of Mus musculus with 12 samples.

Results

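The blood-brain barrier endothelial genes are 10 genes of the vessel lining, Cldn5, Ocln, Tjp1, Slc2a1, Mfsd2a, Abcb1a, Cdh5, Pecam1, Plvap and Vwf. They were chosen by symbol, as barrier and endothelial genes known from textbooks, out of 54532 genes in the count tables. Earlier results of these data were known when they were chosen. All 10 had enough counts to be tested, among 18537 genes that did. They were followed over 12 polyA+ RNA libraries of mouse striatum, the deep forebrain region supplied by the middle cerebral artery. The strain was C57BL/6J throughout. Every group other than sham had transient middle cerebral artery occlusion (tMCAO), a stroke model in which a brain artery is closed for a time and then reopened. The 3d-SN011 group and the SN011 group received tMCAO and SN-011, which the series title calls a STING antagonist. The vehicle group received tMCAO and PBS, and the sham group a sham operation and PBS. Each group had 3 libraries. The labels give both SN-011 groups the same treatment, do not say what 3d stands for, and give no vehicle or sham group of that name, so in comparisons of the 3d-SN011 group the drug and whatever 3d stands for cannot be told apart. No age is given. Whether each library is a mouse of its own is not stated either, and p-values therefore cover the spread between these samples, which may be technical.

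Brain capillaries differ from those of most organs in that their endothelial cells are sealed to each other and move little material in vesicles. Tight junction proteins close the gaps between cells, carriers feed glucose and lipids to the brain, and efflux pumps return foreign compounds to the blood. Stroke is known to open this barrier, and Plvap, a protein of the diaphragms of fenestrated vessels, is known as a gene that mature barrier vessels keep low.

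Promoter windows of 300 bases, from 250 bases before to 50 bases after a RefSeq start on GRCm38.p6, were matched for 6 of the 10 genes: Slc2a1, Mfsd2a, Cldn5, Tjp1, Ocln (with 2 starts) and Abcb1a. Those of Slc2a1, Mfsd2a and Cldn5 are shown because, of the 6, these genes varied most between the libraries of 1 group. Capitals mark matches on either strand, so that some read as the reverse complement, and the matches did not overlap. One motif in capitals is GGGCGG, the GC box bound by SP and KLF factors. Another is ACGTG, the core of the hypoxia response element. In the Mfsd2a window the ETS core CAGGAA is marked as well. The windows lie at chr4:119108495-119108794 on the plus strand for Slc2a1, chr4:122961139-122961438 on the minus strand for Mfsd2a and chr16:18776597-18776896 on the plus strand for Cldn5, and each reads 5′ to 3′ along its gene.
Slc2a1: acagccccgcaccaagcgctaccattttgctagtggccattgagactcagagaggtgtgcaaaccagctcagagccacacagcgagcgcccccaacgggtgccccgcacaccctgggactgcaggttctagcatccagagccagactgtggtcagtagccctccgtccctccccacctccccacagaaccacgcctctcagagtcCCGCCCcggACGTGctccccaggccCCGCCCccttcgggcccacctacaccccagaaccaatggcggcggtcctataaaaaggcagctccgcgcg
Mfsd2a: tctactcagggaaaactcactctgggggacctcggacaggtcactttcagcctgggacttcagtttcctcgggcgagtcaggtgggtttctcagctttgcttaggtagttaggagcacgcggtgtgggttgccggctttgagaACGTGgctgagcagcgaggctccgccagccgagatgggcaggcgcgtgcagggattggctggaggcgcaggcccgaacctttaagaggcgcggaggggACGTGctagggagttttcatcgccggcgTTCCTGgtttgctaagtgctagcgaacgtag
Cldn5: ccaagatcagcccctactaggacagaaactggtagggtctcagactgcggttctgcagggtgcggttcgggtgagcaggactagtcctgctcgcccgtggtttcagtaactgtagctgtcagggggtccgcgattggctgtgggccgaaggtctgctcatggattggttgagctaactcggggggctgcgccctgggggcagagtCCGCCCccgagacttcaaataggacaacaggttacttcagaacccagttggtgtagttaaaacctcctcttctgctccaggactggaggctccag
The Slc2a1 window held 2 GC boxes and 1 ACGTG. The Mfsd2a window held 2 ACGTG and no GC box, and the Cldn5 window 1 GC box and no ACGTG. Among 32851 promoters of the same length, 35.7% held GGGCGG and 19.6% held ACGTG, against 5 and 3 of the 7 windows matched here. CAGGAA was in 1 of the 7, beside 30.6% of all promoters. The KLF motif CACCC, which is not in capitals, was in 6 of the 7, beside 57.5% of all promoters. GC content was 65.3% for Slc2a1, 60.3% for Mfsd2a and 58.3% for Cldn5, above the 52.7% median of all promoters. The Abcb1a window stood apart, with 40.3% GC and 2 matches to CTTTGAA, a TCF/LEF form found in 5.14% of promoters; it starts far upstream of the gene start in the annotation used for the counts. The other TCF/LEF form, CTTTGAT, was in 0 of the 7 windows, beside 3.73% of all promoters. The SOX core ACAAT was also in 0 of the 7, beside 31.0% of all promoters. These matches are letters in a window and no measure of binding.

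Expression is given as TMM-scaled CPM (counts scaled to a common library size), and changes as log2 fold changes from edgeR's quasi-likelihood test on all 12 libraries, with the standard error and a Benjamini-Hochberg adjusted p over all genes tested. A gene rose or fell where this p was under 0.05. The libraries held from 15806076 to 18622053 counts each. The defining endothelial genes were present in every library, but other cell types shifted strongly in the 3d-SN011 group. Summed over their marker lists, neuronal markers stood at 571, 1184 and 1860 CPM in 3d-SN011 libraries and 4987 to 5143 CPM in sham libraries. Microglial and macrophage markers stood at 2619 to 3804 CPM in 3d-SN011 libraries and 303 to 342 CPM in sham libraries. Fibroblast markers stood at 505, 125 and 1037 CPM in 3d-SN011 replicates 1, 2 and 3, and 88.9 to 104 CPM in sham libraries. The astrocyte list reached 10380 to 15310 CPM in 3d-SN011 libraries and 4704 to 4918 CPM in sham libraries. Choroid plexus markers, 121, 805 and 37.9 CPM in 3d-SN011 libraries, ranged from 113 to 3132 CPM in the other 9. Against sham, where 29.8% of all genes rose and 27.9% fell, 9 of 10 microglial and macrophage markers rose, as did 7 of 8 of fibroblasts, 6 of 8 of astrocytes, 5 of 10 of pericytes, 5 of 5 of ependyma, 3 of 5 of oligodendrocytes, 2 of 6 of smooth muscle and 2 of 3 tested of lymphatic endothelium. The 8 neuronal markers all fell, along with 4 of 10 of choroid plexus and 1 of 6 of smooth muscle, and 0 of 5 red cell markers passed. In whole-tissue RNA, a change in the number of endothelial cells and a change in RNA per cell cannot be told apart, and the part of these other cell types in the results that follow was not tested.

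Against sham, 5 of the 10 genes rose in the 3d-SN011 group and 0 fell, while 29.8% of all genes tested rose and 27.9% fell. Those that rose were Vwf, Slc2a1, Mfsd2a, Cdh5 and Pecam1. The median log2 fold change of the 10 was 0.76, against 0.01 over all genes tested. Against vehicle, 9 rose and 0 fell, beside 28.9% and 28.2% of all genes, and the medians were 1.01 and 0.01. Against the SN011 group, 6 rose and 0 fell, beside 23.6% and 22.9% of all genes, with medians of 0.90 and 0.03. Counted by libraries that do not overlap, 4 of the 10 were higher and 0 lower against sham (beside 31.8% and 31.5% of all genes), 7 and 0 against vehicle (29.5% and 30.0%), and 4 and 0 against SN011 (24.6% and 25.7%). These 3 comparisons share the 3d-SN011 libraries. With so large a share of all genes called, a call alone sets no gene apart. In the comparisons among SN011, vehicle and sham, 0 of the 10 genes passed.

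**Figure D1:**
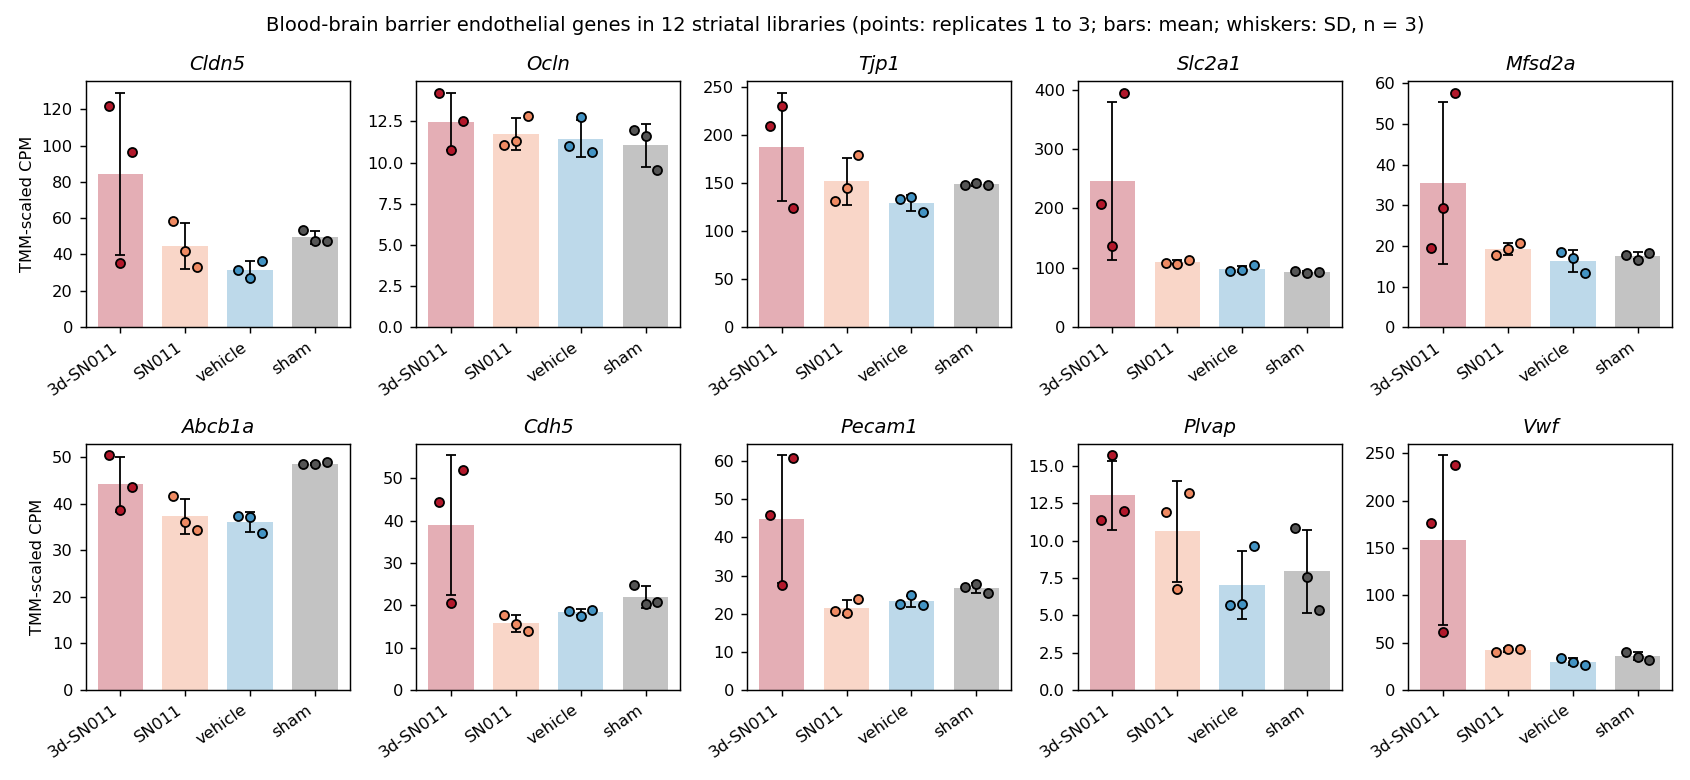
CPM of each gene in each library, 1 panel per gene with its own axis; points are libraries and bars are means with SD (n = 3) in the 3d-SN011, SN011, vehicle and sham groups. Vwf and Slc2a1 lie above every library of the other groups in all 3 of the 3d-SN011 libraries, and Ocln overlaps between all groups.

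The tight junction genes did not move as a block. Claudin-5 (Cldn5, chr16:18776847-18778262, plus strand) is the strand-forming claudin of brain endothelium. It was counted at 122, 35.1 and 96.5 CPM in 3d-SN011 libraries, 58.4, 42.1 and 33.3 CPM in SN011 libraries, 31.7, 26.9 and 36.5 CPM in vehicle libraries and 53.5, 47.3 and 47.3 CPM in sham libraries. Replicates 1 and 3 of the 3d-SN011 group were the highest of the 12 and replicate 2 lay below every sham library, so those groups overlap. The log2 fold change against sham was 0.78 ± 0.34 (SE), with an adjusted p of 0.0664. Without 3d-SN011 replicate 2 it was 1.14, with an adjusted p of 0.000648, and DESeq2 (adjusted p = 0.0433) and the fit with no filter on low counts (0.0111) also called it. Against vehicle Cldn5 rose by 1.41 ± 0.35 (adjusted p = 0.0037) and against SN011 by 0.92 ± 0.34 (adjusted p = 0.0409). The last call was lost without 3d-SN011 replicate 1 (adjusted p = 0.197), without replicate 3 (0.0908), without SN011 replicate 2 (0.113) or 3 (0.12), with only the 6 libraries compared (0.143) and under voom (0.299).

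Occludin (Ocln, chr13:100496507-100552718, minus strand), a membrane protein of the same junctions, was the flattest of the 10. It stood at 14.2, 10.7 and 12.5 CPM in 3d-SN011 libraries, 11.1, 11.3 and 12.8 CPM in SN011 libraries, 10.99, 12.8 and 10.6 CPM in vehicle libraries and 11.95, 11.6 and 9.56 CPM in sham libraries. All 4 groups overlapped. The log2 fold change of 3d-SN011 against sham was 0.18 ± 0.16, with a 95% interval from -0.18 to 0.53 and an adjusted p of 0.374. Against vehicle and SN011 it was 0.12 and 0.09, with adjusted p of 0.536 and 0.68.

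ZO-1 (Tjp1, chr7:65296165-65527781, minus strand) is the scaffold that ties claudins and occludin to actin, and it is made by many cell types besides endothelium. Its values were 210, 230 and 124 CPM in 3d-SN011 libraries, 132, 145 and 179 CPM in SN011 libraries, 133, 135 and 120 CPM in vehicle libraries and 148, 150 and 148 CPM in sham libraries. Its order within the 3d-SN011 group was the reverse of that of Slc2a1, Cdh5, Pecam1 and Vwf, with the highest value in replicate 2 and the lowest in replicate 3. Tjp1 rose against vehicle only, by 0.54 ± 0.19 (adjusted p = 0.0298), and this call was lost without 3d-SN011 replicate 1 (adjusted p = 0.0899) or 2 (0.13), without any of the vehicle libraries (0.0596 to 0.0937), or with the 6 libraries compared (0.0819). Against sham the value was 0.34 ± 0.19 (adjusted p = 0.148) and against SN011 0.31 ± 0.19 (adjusted p = 0.207). Without 3d-SN011 replicate 3 both passed, with adjusted p of 0.00265 and 0.00534, as they did under voom (0.0338 and 0.0154).

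The nutrient carriers rose in all 3 comparisons of the 3d-SN011 group. GLUT1 (Slc2a1, chr4:119108711-119137983, plus strand) carries glucose across the barrier and is also made by glia. It was counted at 207, 137 and 395 CPM in 3d-SN011 libraries, 108, 107 and 113 CPM in SN011 libraries, 94.0, 97.0 and 104 CPM in vehicle libraries and 94.3, 91.7 and 92.0 CPM in sham libraries. Every 3d-SN011 library was above every other library, and the sham libraries were nearly equal. The means were 246 ± 133 CPM in the 3d-SN011 group and 92.7 ± 1.40 CPM in the sham group (SD, n = 3), a log2 fold change of 1.41 ± 0.27 (adjusted p = 0.000747). Replicate 3 was the largest contributor: without it the log2 fold change was 0.89 against sham, 0.81 against vehicle and 0.65 against SN011, where the full values were 1.41, 1.32 and 1.17. All 3 remained past the threshold.

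Mfsd2a (chr4:122946850-122961188, minus strand) carries lysophosphatidylcholine with docosahexaenoic acid into the brain and is known to hold down vesicle transport in barrier endothelium. It stood at 19.5, 29.2 and 57.7 CPM in 3d-SN011 libraries, 17.9, 19.1 and 20.7 CPM in SN011 libraries, 18.6, 17.0 and 13.3 CPM in vehicle libraries and 17.7, 16.6 and 18.3 CPM in sham libraries. The 3d-SN011 group did not overlap vehicle or sham, though its lowest library lay inside the SN011 range. Mfsd2a rose by 1.02 ± 0.30 against sham (adjusted p = 0.0107), 1.12 ± 0.30 against vehicle (adjusted p = 0.0062) and 0.88 ± 0.30 against SN011 (adjusted p = 0.0267). Without 3d-SN011 replicate 3 these were 0.47, 0.58 and 0.34, and the last was no longer past the threshold (adjusted p = 0.147). The call against SN011 was also lost without SN011 replicate 1 (adjusted p = 0.0866) or 2 (0.0738) and with the 6 libraries compared (0.103).

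Abcb1a (chr5:8660077-8748575, plus strand) encodes P-glycoprotein, the main drug efflux pump of mouse brain capillaries. It was counted at 50.4, 38.7 and 43.6 CPM in 3d-SN011 libraries, 41.6, 36.1 and 34.3 CPM in SN011 libraries, 37.5, 37.1 and 33.7 CPM in vehicle libraries and 48.5, 48.5 and 48.9 CPM in sham libraries. It was the one gene of the 10 with its 3d-SN011 mean below its sham mean, 44.2 ± 5.88 and 48.6 ± 0.263 CPM (SD, n = 3), with a log2 fold change of -0.14 (95% interval from -0.39 to 0.12, adjusted p = 0.335). Against vehicle it rose by 0.29 ± 0.12 (adjusted p = 0.0495), a call lost without 3d-SN011 replicate 1 (adjusted p = 0.2) or 3 (0.0603), without any of the vehicle libraries (0.0862 to 0.151), with no filter on low counts (0.173), with the 6 libraries compared (0.154) and under voom (0.108). Against SN011 the value was 0.24 ± 0.12 (adjusted p = 0.106), and it passed without 3d-SN011 replicate 2 (adjusted p = 0.0367). Its close paralog Abcb1b and a transcript of uncertain status on the other strand that shares 553 exon bases, counted at 2 to 15 reads, could exchange reads with it; for Slc2a1 an antisense gene shares 105 exon bases and held 4 to 79 reads.

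**Figure D2:**
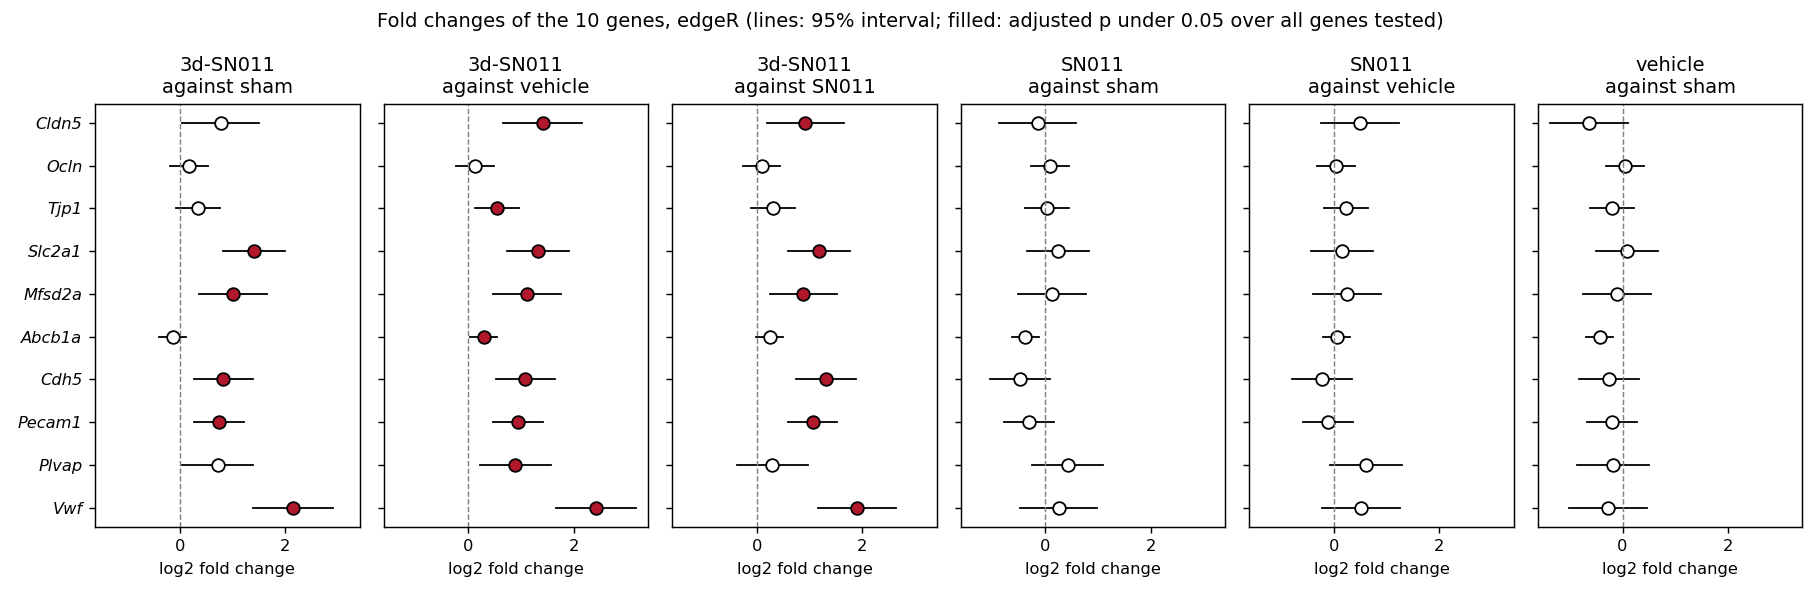
Log2 fold changes of the 10 genes with 95% intervals in the 6 comparisons, from edgeR's quasi-likelihood test on 12 libraries; filled points passed an adjusted p of 0.05. Vwf, Slc2a1, Mfsd2a, Cdh5 and Pecam1 are filled, right of 0, in all 3 comparisons of the 3d-SN011 group, and no point is filled in the other 3 comparisons.

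The adhesion genes moved as a pair. VE-cadherin (Cdh5, chr8:104101625-104144511, plus strand) is the cadherin of endothelial adherens junctions. It stood at 44.3, 20.5 and 52.1 CPM in 3d-SN011 libraries, 17.8, 15.6 and 13.9 CPM in SN011 libraries, 18.6, 17.6 and 18.98 CPM in vehicle libraries and 24.9, 20.3 and 20.8 CPM in sham libraries. Replicate 2 of the 3d-SN011 group lay within the sham range. Cdh5 rose by 0.83 ± 0.26 against sham (adjusted p = 0.0151), 1.08 ± 0.26 against vehicle (adjusted p = 0.00326) and 1.31 ± 0.26 against SN011 (adjusted p = 0.0016). The call against sham was lost without 3d-SN011 replicate 1 (adjusted p = 0.0502) or 3 (0.0701), without sham replicate 2 (0.056) or 3 (0.0518), and with the 6 libraries compared (0.0594).

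PECAM-1 (Pecam1, chr11:106654217-106750628, minus strand) is a cell-cell adhesion molecule of endothelium that platelets and leukocytes also carry. It was counted at 45.9, 27.5 and 61.0 CPM in 3d-SN011 libraries, 20.6, 20.2 and 23.8 CPM in SN011 libraries, 22.6, 24.99 and 22.3 CPM in vehicle libraries and 26.9, 27.8 and 25.4 CPM in sham libraries. As for Cdh5, replicate 2 fell inside the sham range while replicates 1 and 3 lay above all other libraries. Pecam1 rose by 0.74 ± 0.22 against sham (adjusted p = 0.0101), 0.94 ± 0.22 against vehicle (adjusted p = 0.00251) and 1.06 ± 0.22 against SN011 (adjusted p = 0.00188). Without 3d-SN011 replicate 3 the value against sham was 0.45 (adjusted p = 0.0458).

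Of the genes of vessel state, Vwf had the largest change of the 10 in all 3 comparisons of the 3d-SN011 group. Von Willebrand factor (chr6:125546774-125686679, plus strand) is the clotting glycoprotein that endothelium stores and releases on injury, most of it in larger and venous vessels. Its values were 176, 61.0 and 238 CPM in 3d-SN011 libraries, 40.3, 43.2 and 43.5 CPM in SN011 libraries, 33.5, 29.0 and 26.1 CPM in vehicle libraries and 40.4, 34.8 and 31.6 CPM in sham libraries. No 3d-SN011 library overlapped another group, though replicate 2 was well under the other two. The means were 158 ± 89.6 CPM in the 3d-SN011 group and 35.6 ± 4.47 CPM in the sham group (SD, n = 3). Vwf rose 4.44-fold against sham (log2 2.15 ± 0.35, adjusted p = 0.000205), 5.36-fold against vehicle (adjusted p = 9.92e-05) and 3.74-fold against SN011 (adjusted p = 0.000895). Platelets also carry Vwf protein: of 8 platelet and megakaryocyte markers, 3 had enough counts to be tested and 2 rose against sham, and their sum was 10.8 to 24.6 CPM in 3d-SN011 libraries and 3.45 to 4.91 CPM in sham libraries, with Gp1bb at 0 in both groups and Gp6 at 0 in sham.

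Plvap (chr8:71497765-71511752, minus strand) had low counts in every group, at 11.4, 15.7 and 12.01 CPM in 3d-SN011 libraries, 11.9, 6.79 and 13.2 CPM in SN011 libraries, 5.69, 5.73 and 9.65 CPM in vehicle libraries and 10.9, 7.58 and 5.38 CPM in sham libraries. The 3d-SN011 group lay above vehicle and sham with no overlap and overlapped the SN011 group. Plvap rose against vehicle, by 0.89 ± 0.31 (adjusted p = 0.0275), a call lost without 3d-SN011 replicate 2 (adjusted p = 0.0898) and without vehicle replicate 1 (0.103) or 2 (0.102). Against sham the value was 0.72 ± 0.31 (adjusted p = 0.0655), which passed without sham replicate 1 (adjusted p = 0.0274) under DESeq2 (0.0453), under voom (0.0448) and with no filter (0.0418), and against SN011 it was 0.29 ± 0.31 (adjusted p = 0.456). Its highest 3d-SN011 library was replicate 2, the lowest of the 3 for Cldn5, Slc2a1, Cdh5, Pecam1 and Vwf.

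Within the 3d-SN011 group, 4 of the 10 genes, Slc2a1, Cdh5, Pecam1 and Vwf, had the same order of libraries, replicate 3, then 1, then 2. The other 6 had other orders. Fibroblast, pericyte and platelet marker sums had the order of those 4, at 1037, 505 and 125 CPM, at 556, 447 and 369 CPM and at 24.6, 15.5 and 10.8 CPM. Every other marker list had another order. Smooth muscle, for example, stood at 37.9, 40.9 and 26.7 CPM and lymphatic endothelium at 84.1, 129 and 173 CPM in replicates 3, 1 and 2. The mean log2 CPM of 10 pan-endothelial genes that are not among the 10 (Tie1, Tek, Erg, Egfl7, Esam, Robo4, Ptprb, Clec14a, Myct1 and Cyyr1) was 4.30, 4.26 and 3.54 in the same 3 libraries, and 3.55 ± 0.09 (SD, n = 3) in the sham group. Replicate 2 was therefore at the sham level of pan-endothelial RNA and the other two above it.

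Setting each gene against those 10 pan-endothelial genes within a library asks how it stood relative to their mean. The 10 did not move as 1, with log2 fold changes in 3d-SN011 against sham from -0.04 for Tek to 1.59 for Clec14a. Relative to that mean, Vwf was higher in the 3d-SN011 group than in the sham group by 1.47 on the log2 scale, at 3.20, 2.39 and 3.59 in 3d-SN011 libraries and 1.69, 1.61 and 1.49 in sham libraries. Slc2a1 was higher by 0.79, at 3.43, 3.56 and 4.32 in 3d-SN011 libraries and 2.91, 3.00 and 3.03 in sham libraries. Abcb1a was lower by 0.63, at 1.39, 1.73 and 1.15 in 3d-SN011 libraries and 1.95, 2.08 and 2.12 in sham libraries. These 3 had no overlap between the groups. Against vehicle, Vwf (1.44) and Slc2a1 (0.41) were higher in every 3d-SN011 library, and Abcb1a (-0.49) and Ocln (-0.66) lower. Against SN011, Vwf (0.93) was higher and Abcb1a (-0.52) and Ocln (-0.68) lower without overlap, and Slc2a1 overlapped, at 0.28. The other 3 comparisons also held ratios without overlap. In SN011 against sham, Slc2a1 (0.52), Vwf (0.54), Ocln (0.37) and Mfsd2a (0.41) were higher, in SN011 against vehicle Vwf (0.51) was higher and Cdh5 (-0.25) lower, and in vehicle against sham Slc2a1 (0.38) and Ocln (0.35) were higher and Cldn5 (-0.35) lower. The pan-endothelial mean was itself 4.04 in 3d-SN011, 3.27 in SN011, 3.26 in vehicle and 3.55 in sham (log2 CPM). A gene flat in CPM therefore has a lower ratio in 3d-SN011, and a higher one in SN011 and vehicle, than in sham. The log2 fold change of Ocln itself against sham was 0.09 in SN011 and 0.05 in vehicle. Such ratios were not taken over all genes. The ratios of Cldn5, Ocln, Tjp1, Mfsd2a, Cdh5, Pecam1 and Plvap overlapped between 3d-SN011 and sham, with differences from -0.31 to 0.39. An exact two-sided permutation test of 3 against 3 cannot go below 0.1, which is the p of each ratio without overlap, and 0.316 after adjustment over the 60 ratios tested.

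**Figure D3:**
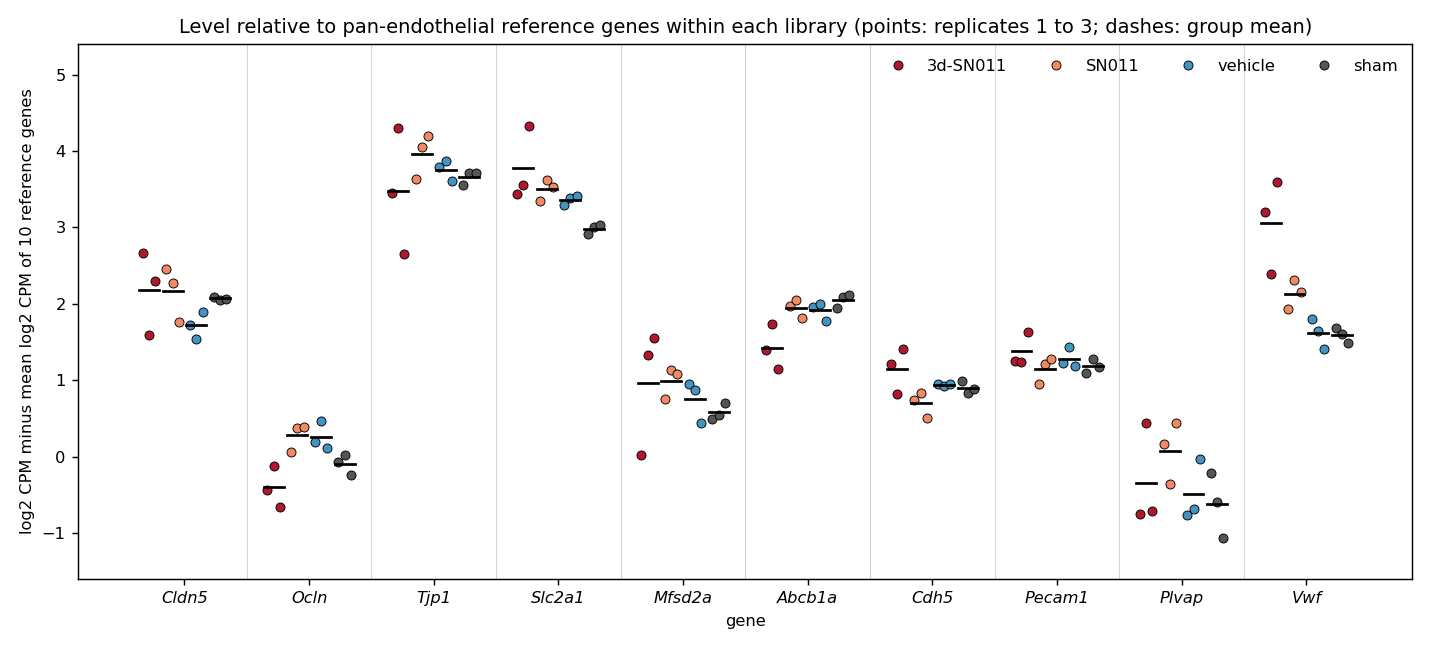
Log2 ratio of each gene to the mean of 10 pan-endothelial genes in the same library, by group (3d-SN011, SN011, vehicle, sham); points are libraries and dashes are means (n = 3). Vwf and Slc2a1 lie higher and Abcb1a lower in the 3d-SN011 libraries than in the sham libraries, without overlap.

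The same question can be put to the fit itself, by scaling libraries on the pan-endothelial genes in place of TMM. This scaling moved the median of all genes by -0.28, -0.62 and -0.58 in 3d-SN011 against sham, vehicle and SN011, and the share of called genes that were higher went to 37.7%, 21.4% and 12.4%, against 51.6%, 50.6% and 50.7% under TMM. Under it 2 of the 10 genes rose against sham, Vwf by 1.68 (adjusted p = 2.93e-05) and Slc2a1 by 0.99 (adjusted p = 0.00338), and Vwf alone rose against vehicle (1.60, adjusted p = 3.88e-05) and SN011 (1.10, adjusted p = 0.00218). Of all 18537 genes tested, 3100 rose against sham, 2179 against vehicle and 989 against SN011 under this scaling. Ocln turned negative in all 3 comparisons, at -0.14, -0.54 and -0.56. Tjp1 and Abcb1a turned negative against vehicle, at -0.01 and -0.37, and against SN011, at -0.23 and -0.38, where Plvap also did, at -0.23.

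In the SN011 group, 0 of the 10 genes rose or fell against sham, beside 0.113% and 0% of all genes, and the adjusted p ranged from 0.182 to 0.966. The count of all genes with an unadjusted p under 0.05 was 2368, and Abcb1a was the one gene of the 10 among them. Its SN011 values, all below the 3 sham values, gave a log2 fold change of -0.38 ± 0.12 (unadjusted p = 0.0068, adjusted p = 0.182), and limma voom with quality weights called it (adjusted p = 0.0361). Cdh5 and Pecam1 were also below sham without overlap, at -0.48 (95% interval from -1.05 to 0.08) and -0.31 (from -0.78 to 0.16), and Slc2a1 was above it, at 0.24 (from -0.35 to 0.82). That is 1 gene higher and 3 lower without overlap, beside 12.8% and 12.9% of all genes. The remaining members overlapped, with log2 fold changes from -0.15 for Cldn5 to 0.42 for Plvap; Cldn5 moved to 0.15 under pan-endothelial scaling and 0.09 under voom, and Pecam1 to 0.01 under pan-endothelial scaling, which moved the median of all genes to 0.32.

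Against vehicle, the SN011 group shows how SN-011 and PBS differed after occlusion. Of the 10 genes, 0 rose and 0 fell by edgeR's quasi-likelihood test, beside 0.0108% and 0.00539% of all genes, and 0 had an unadjusted p under 0.05, when 2050 of all genes did. DESeq2 and voom also called 0 of the 10. Vwf was the clearest in its values, all 3 SN011 libraries lying above the 3 vehicle libraries, with a log2 fold change of 0.52 ± 0.34 (95% interval from -0.22 to 1.26, adjusted p = 0.632). Slc2a1 was the other gene without overlap, at 0.15 (from -0.43 to 0.73), which makes 2 of 10 higher and 0 lower, beside 9.01% and 7.32% of all genes. For Cldn5 the value was 0.49 (from -0.25 to 1.23) and for Plvap 0.60 (from -0.09 to 1.28), and the intervals of both reach past a log2 fold change of 1.

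Against sham, the vehicle group had 0 of the 10 genes higher or lower by edgeR's quasi-likelihood test, beside 0% and 0% of all genes. DESeq2 called 5 of all genes and voom 32, and both called 0 of the 10. Of all genes 467 had an unadjusted p under 0.05, Abcb1a among them, at -0.43 ± 0.12 (unadjusted p = 0.00319, adjusted p = 1). Its vehicle libraries, 33.7 to 37.5 CPM, lay below its sham libraries, 48.5 to 48.9 CPM. Cldn5, Tjp1, Cdh5 and Pecam1 were also below sham in every vehicle library, at -0.64, -0.20, -0.26 and -0.20, which makes 5 of 10 lower without overlap beside 6.29% of all genes, and 0 higher beside 6.86%. The pan-endothelial mean moved the same way, at 3.26 ± 0.05 in the vehicle group and 3.55 ± 0.09 in the sham group (log2 CPM, SD, n = 3), and under pan-endothelial scaling Tjp1, Cdh5 and Pecam1 turned positive, at 0.14, 0.09 and 0.15, while Cldn5 and Abcb1a did not change sign. That scaling moved the median of all genes to 0.35, so these 3 values lie below it.

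Per kilobase of merged exons, which lets genes be compared with each other, the order in sham striatum was led by Cldn5 at 34.9 CPM per kilobase, then Slc2a1 at 26.4 and Tjp1 at 19.03. Abcb1a (8.87), Mfsd2a (7.79), Cdh5 (5.23) and Pecam1 (4.29) followed, and the libraries of neighbours in this order did not overlap up to Pecam1. Plvap (3.996), Ocln (2.62) and Vwf (2.22) closed it, and from Pecam1 on each overlapped the next. In the vehicle group Slc2a1, at 28.1, stood above Cldn5, at 22.4 CPM per kilobase, without overlap. In the SN011 group Cldn5 and Slc2a1 overlapped at 31.5 and 31.2. In the 3d-SN011 group Slc2a1 averaged 70.3 and Cldn5 59.7 CPM per kilobase, Vwf took rank 5 at 9.85, where it was the last of the 10 in the other 3 groups, and Plvap and Ocln, at ranks 9 and 10, were the one pair of neighbours whose libraries did not overlap. The lower part of this order depends on the length used. Per kilobase of the longest transcript, Ocln was the last of the 10 in all 4 groups, at 3.08 in the 3d-SN011 group and 2.73 in the sham group. Vwf then had rank 4 in the 3d-SN011 group (17.9) and rank 8 in the sham group (4.03), where Pecam1 (7.77) and Cdh5 (5.50) did not overlap. By that length Cldn5 and Slc2a1 still led in sham, at 34.9 and 28.4.

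**Figure D4:**
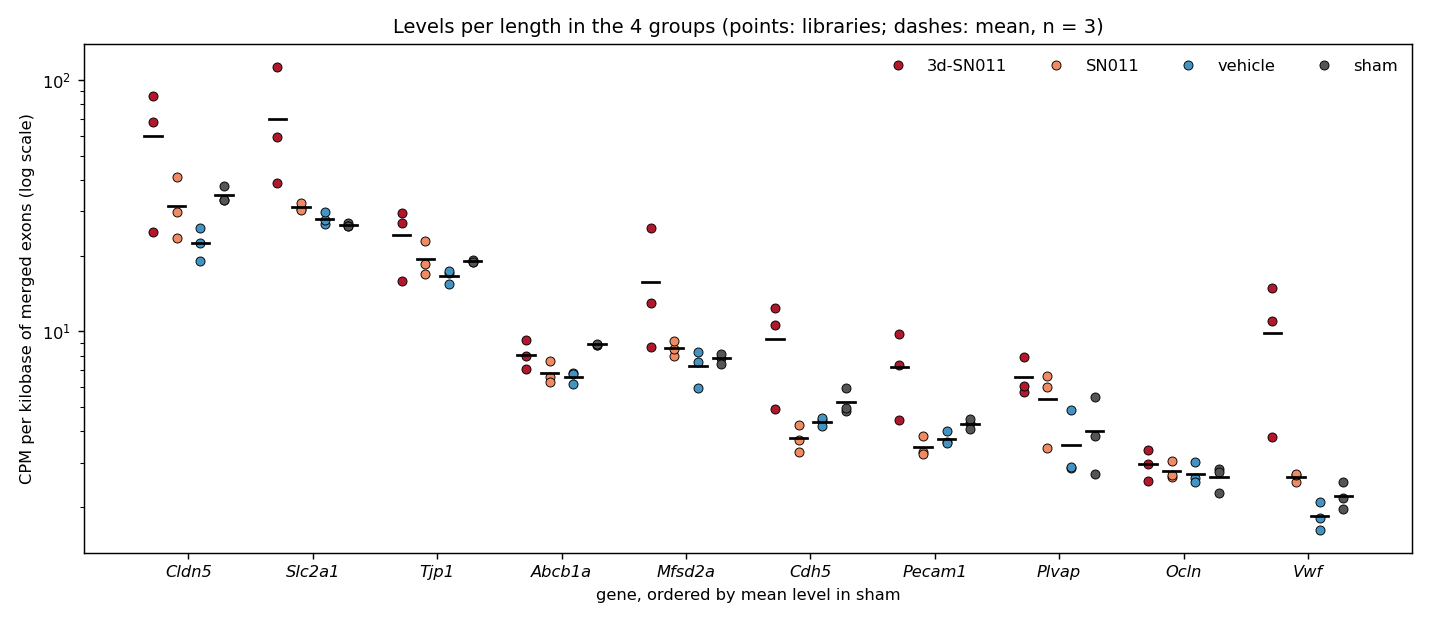
CPM per kilobase of merged exons on a log axis for the 10 genes in the 3d-SN011, SN011, vehicle and sham groups, with points for libraries and dashes for means (n = 3); genes run in the order of their sham level. By this length Vwf is the lowest gene in the SN011, vehicle and sham groups and has rank 5 in the 3d-SN011 group; by the longest transcript Ocln is the lowest in all 4.

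Across the 12 libraries, the genes were compared by the root mean square difference of their log2 CPM, each centred on its own mean. The closest pair was Cdh5 and Pecam1, at 0.186, and the farthest Tjp1 and Vwf, at 0.921. The nearest genes were sought among tested genes with at least 1 CPM on average, a symbol, and no Gm or Rik name. Among these, Cdh5 was most like Tie1 (0.184), Pecam1 (0.186) and Nos3 (0.193), and Pecam1 most like Nos3 (0.137), Eng (0.139) and Coro1c (0.143). For Cldn5 the nearest were Hspg2 (0.201), Sox18 (0.217) and Tie1 (0.251). Vwf lay nearest to Fn1 (0.121), Anpep (0.181) and Scarf2 (0.219), none of them on the pan-endothelial list, and Anpep is on the pericyte list used here. Slc2a1 was nearest to Rbm3 (0.121), Fstl1 (0.125) and Bicc1 (0.136). For Mfsd2a these were Itpk1 (0.203), Slc39a14 (0.214) and Cpm (0.217), and for Plvap Isoc2a (0.232), Tekt2 (0.235) and Bcam (0.242). The flatter genes Ocln, Tjp1 and Abcb1a had small differences to their nearest genes: Tut7 (0.080), Spata13 (0.081) and Mapk1ip1l (0.083) for Ocln, Specc1 (0.072), Nxt2 (0.097) and Cep41 (0.108) for Tjp1, and Lcmt2 (0.111), Mta3 (0.113) and Mfge8 (0.128) for Abcb1a. The points share libraries and scaling, and the distances are descriptions.

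Around the 10 genes, 6 wider lists give the rest of the barrier. Their counts are to be read against the shares of all genes that rose and fell, 29.8% and 27.9% against sham, 28.9% and 28.2% against vehicle and 23.6% and 22.9% against SN011. Of 18 further junction genes, 10 rose and 3 fell in the 3d-SN011 group against sham, beside 29.8% and 27.9% of all genes, with a median log2 fold change of 0.53. The largest rises were in Nectin2, a nectin of adherens junctions, by 2.71 (adjusted p = 1.21e-05), F11r, which encodes JAM-A, by 2.19 (adjusted p = 8.99e-05), and Jam2 by 1.28 (adjusted p = 0.00229). Other claudins went the opposite way: Cldn12 fell by 1.10 (adjusted p = 4.44e-05) and Cldn1 by 1.43 (adjusted p = 0.0132, 0.0801 without sham replicate 1 and 0.272 under voom), as did Afdn, the afadin scaffold, by 0.87 (adjusted p = 3.69e-05). Cldn1 is also made outside vessels, choroid plexus included, and stood at 0.972, 1.58 and 1.19 CPM in 3d-SN011 libraries and 5.22, 3.46 and 1.45 CPM in sham libraries. Its order was that of the choroid plexus marker sum in sham libraries (2626, 1263 and 113 CPM) but not in 3d-SN011 libraries (121, 805 and 37.9 CPM). The part of choroid plexus in this fall was not tested. Against vehicle the counts were 11 higher and 4 lower, which added Marveld2, encoding tricellulin, among the largest rises (1.58, adjusted p = 0.00685) and Cgn, encoding cingulin, among the falls (-0.79, adjusted p = 0.0279). The Cgn call was lost without 3d-SN011 replicate 1 (adjusted p = 0.102) or vehicle replicate 3 (0.127), with the 6 libraries compared (0.0616) and under voom (0.0996), and that of Marveld2 under pan-endothelial scaling (0.141).

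Of 21 further transporter genes, 9 rose and 4 fell against sham, beside 29.8% and 27.9% of all genes, with a median of 0.18. Abcb1b, the second mouse P-glycoprotein gene, stood at 22.2, 19.8 and 15.6 CPM in 3d-SN011 libraries and 2.18, 2.67 and 3.02 CPM in sham libraries, and rose by 2.87 ± 0.40 (adjusted p = 6.68e-05). This contrasts with its paralog Abcb1a, described above, at -0.14. Slco2b1, an organic anion carrier, rose by 2.50 (adjusted p = 2.68e-05), and Slc3a2, the heavy chain of large neutral amino acid exchangers, by 1.37 (adjusted p = 1.22e-05). The falls were led by the zinc carrier Slc39a10 at -1.47 (adjusted p = 2.05e-05), the organic anion transporter Slc22a8 at -0.77 (adjusted p = 0.0104, and -0.51 without 3d-SN011 replicate 3) and the transferrin receptor Tfrc at -0.76 (adjusted p = 0.00729). Slc16a1, the lactate carrier MCT1, was among the largest rises against vehicle (1.55, adjusted p = 0.000139), and Slc7a1, a cationic amino acid carrier, among the falls (-0.48, adjusted p = 0.0149, and 0.0557 without 3d-SN011 replicate 2). Most of these carriers are also made by glia or other cells.

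Of 21 genes of the Wnt and Norrin signal that forms and keeps the barrier, 8 rose and 2 fell against sham, beside 29.8% and 27.9% of all genes, with a median of 0.51. The ligand Wnt7b rose by 1.87 (adjusted p = 0.000111), the co-receptor Lrp5 by 1.82 (adjusted p = 2.39e-05) and the ligand Ndp, or Norrin, by 1.36 (adjusted p = 0.0118, and 0.0746 without 3d-SN011 replicate 2, where the value was 0.83). The transcription factor Tcf7 fell by 0.90 (adjusted p = 0.00169) and the co-receptor Lrp6 by 0.37 (adjusted p = 0.0158, and 0.0559 without 3d-SN011 replicate 2 or 0.0585 without sham replicate 1). Against SN011, 8 rose and 2 fell, beside 23.6% and 22.9% of all genes, and 4 rose without 3d-SN011 replicate 1, SN011 replicate 1 or SN011 replicate 2.

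Of 30 pan-endothelial genes, 16 rose and 2 fell against sham, beside 29.8% and 27.9% of all genes, with a median of 0.61. Without 3d-SN011 replicate 3 or sham replicate 3 the number that rose was 10 of 30, near the share of all genes, and without 3d-SN011 replicate 2 it was 21. The largest rises were in Ecscr, at 24.2, 15.7 and 20.1 CPM in 3d-SN011 libraries and 2.43, 2.42 and 2.18 CPM in sham libraries (3.09 ± 0.37, adjusted p = 2.41e-05), in Fli1, an ETS factor that blood cells also make (2.36, adjusted p = 4.99e-05), and in Clec14a (1.59, adjusted p = 0.0146, 0.0851 without 3d-SN011 replicate 3, where the value was 0.95, and 0.0595 under voom). Ecscr was thus high in 3d-SN011 replicate 2 too, where the pan-endothelial mean was at the sham level. In SN011 libraries it stood at 3.58, 2.40 and 7.67 CPM. That is the order of the microglial and macrophage marker sum there (516, 411 and 1241 CPM), but the orders differed in 3d-SN011 libraries. The part of other cell types in the rise of Ecscr was not tested. The 2 that fell were the VEGF receptors Kdr, at 26.4, 17.4 and 20.5 CPM in 3d-SN011 libraries and 38.6, 33.0 and 28.3 CPM in sham libraries (-0.64, adjusted p = 0.0187), and Flt1 (-0.34, adjusted p = 0.0357). The Flt1 call was lost when 3d-SN011 replicate 2 or 3 or any sham library was left out (adjusted p from 0.0544 to 0.109), under voom (0.0652) and with no filter (0.0675), and that of Kdr without 3d-SN011 replicate 2 (0.0688) or sham replicate 1 (0.0777). Against vehicle neither passed, at -0.03 for Kdr (adjusted p = 0.918) and 0.05 for Flt1 (adjusted p = 0.768), where 21 of the list rose and 0 fell, beside 28.9% and 28.2% of all genes. Against SN011, 22 rose and 0 fell, beside 23.6% and 22.9%, and 12 rose without SN011 replicate 2.

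Of 12 genes of caveolae and vesicle transport, 10 rose and 1 fell against sham, beside 29.8% and 27.9% of all genes, with a median of 1.34. Ager, the receptor for advanced glycation end products, rose by 3.00 (adjusted p = 0.000137), Ehd4, a membrane-shaping ATPase, by 2.53 (adjusted p = 1.92e-05) and the caveolin Cav2 by 1.74 (adjusted p = 0.00019). The one that fell was Cltc, the clathrin heavy chain, by 0.75 (adjusted p = 0.000835). The counts were the same, 10 and 1, against vehicle and against SN011, where Ehd2, an ATPase of the caveolar neck, was among the largest rises (1.75, adjusted p = 1.71e-05, and 1.24, adjusted p = 0.000293, or 0.0844 under pan-endothelial scaling). Cav2 stood at 67.1, 90.5 and 43.8 CPM in 3d-SN011 libraries, the order of the astrocyte marker sum (12430, 15310 and 10380 CPM). It had that order in SN011 and vehicle libraries as well, but not in sham libraries. The part of other cell types in these rises was not tested. Mfsd2a, which is known to hold down vesicle transport in barrier endothelium, rose in the same 3 comparisons.

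Of 25 genes of endothelial activation and venous identity, 22 could be tested, and 18 rose and 1 fell against sham, beside 29.8% and 27.9% of all genes, with a median of 1.69. Ch25h, the cholesterol 25-hydroxylase, rose by 5.88 (adjusted p = 0.000232), Lcn2, lipocalin-2, by 4.04 (adjusted p = 0.000689) and the leukocyte ligand Icam1 by 3.37 (adjusted p = 0.00011). All 3 are also made by glia or myeloid cells. Lcn2 stood at 7.32, 14.3 and 20.6 CPM in 3d-SN011 libraries and 25.3, 9.48 and 3.67 CPM in SN011 libraries. Its log2 fold change was 0.14 in 3d-SN011 against SN011 (adjusted p = 0.874). In SN011 against sham it was 3.91 (adjusted p = 0.06). Ackr1, the chemokine-binding receptor that marks venules, was the one that fell, at 11.5, 15.7 and 35.5 CPM in 3d-SN011 libraries and 42.1, 39.7 and 38.7 CPM in sham libraries (-0.95, adjusted p = 0.0196). Without 3d-SN011 replicate 3 the value was -1.57. That call was lost without 3d-SN011 replicate 1 (adjusted p = 0.0599) or 2 (0.0721) or sham replicate 1 (0.05), and with the 6 libraries compared (0.0574). In 3d-SN011 libraries Ackr1 had the order of the neuronal marker sum, 571, 1184 and 1860 CPM. It also had that order in SN011 and vehicle libraries, but not in sham libraries. The part of neurons in this fall was not tested. Vwf, which is also enriched in veins, moved in the opposite direction to Ackr1 in the same libraries. Angpt2, an antagonist of the Tie2 receptor, was the largest rise against SN011, at 5.63, 1.83 and 26.0 CPM in 3d-SN011 libraries and 2.20, 0.994 and 0.767 CPM in SN011 libraries (3.07, adjusted p = 0.00555), and its value was 1.49 without 3d-SN011 replicate 3 and 1.41 under voom (adjusted p = 0.062).

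In the comparisons of SN011 with sham, SN011 with vehicle and vehicle with sham, 0 genes of any of the 6 lists were called by edgeR's quasi-likelihood test with all libraries. List medians in SN011 against sham ran from -0.19 for the pan-endothelial list to 0.51 for activation and venous genes, and without SN011 replicate 2 that last list had 4 genes that rose, the transporters 2 and the junctions 1, and without SN011 replicate 3 that last list had 1. In SN011 against vehicle they ran from 0.03 for transporters to 0.49 for activation and venous genes, and without SN011 replicate 2 the activation list had 3 genes that rose and the transporter, Wnt and pan-endothelial lists 1 each. In vehicle against sham they ran from -0.30 for the pan-endothelial list to 0.00 for caveolae. SN011 replicate 3 had the highest microglial and macrophage marker sum of its group, 1241 CPM, against 516 and 411 CPM in the other two libraries and 303 to 342 CPM in sham libraries.

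**Figure D5:**
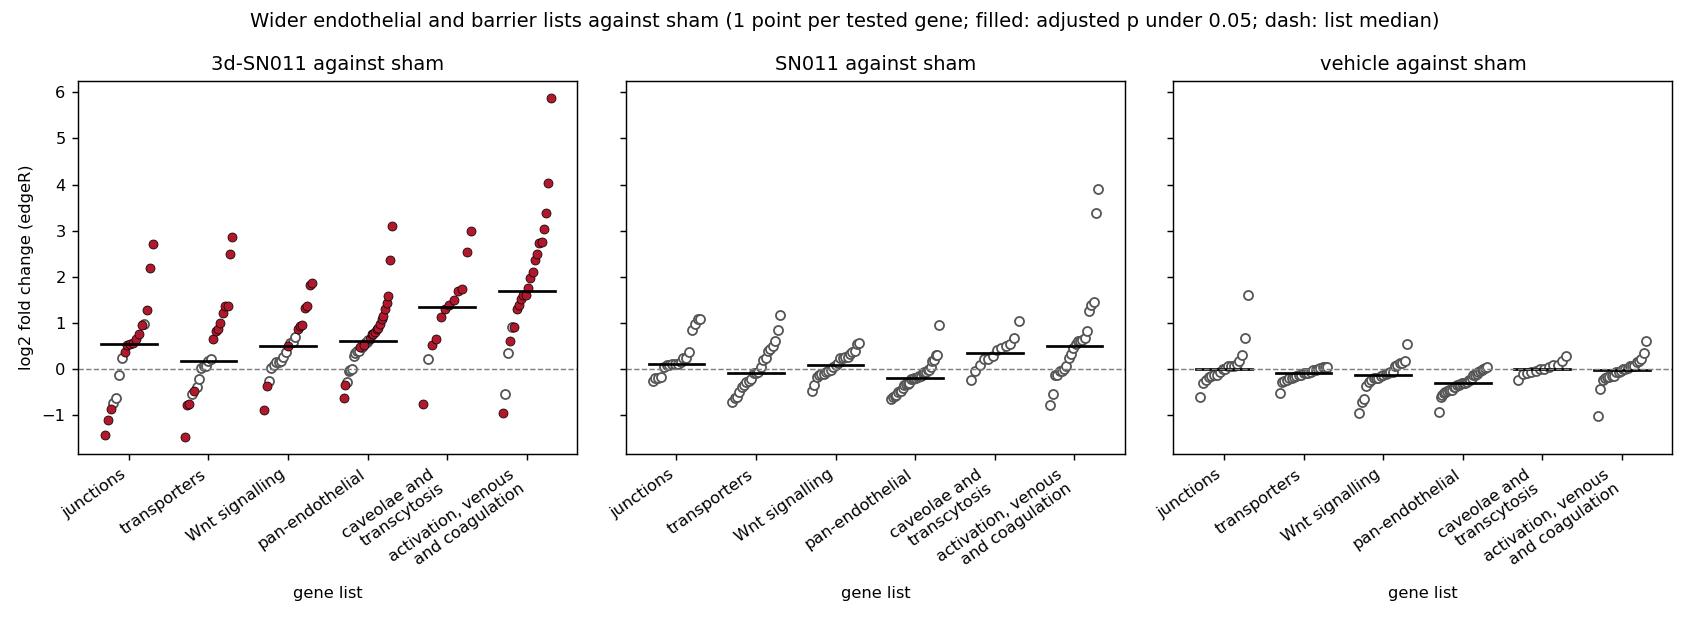
Log2 fold changes of the genes of the 6 wider lists in 3d-SN011, SN011 and vehicle against sham; points are genes, filled where the adjusted p was under 0.05, and dashes are list medians. Activation and venous genes and caveolar genes have the highest medians in the 3d-SN011 panel (1.69 and 1.34), and no point is filled in the other 2 panels.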

How the data were processed

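RNA of striatum was sequenced as paired reads from polyA+ libraries, per the labels' protocols, in 12 libraries of 4 groups taken from the titles. HISAT2, featureCounts and the mm10 build are named in the submitters' processing notes; no version, annotation or strandedness is named there. The deposited tables hold integer counts for each Ensembl gene, to which the authors applied no normalization as far as the values show. Symbols, positions (GRCm38) and exon lengths came from GENCODE M21, and promoters from RefSeq. The 10 genes, the lists and the tests were chosen with earlier results of these data known.

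Counts were fitted in R 4.3.3 with edgeR 4.0.16 (filterByExpr on groups at minimum count 10, TMM, 1 quasi-likelihood model of all 12 libraries with group as its term), and all 6 comparisons between groups were adjusted by Benjamini-Hochberg over 18537 genes. Standard errors are the log2 fold change over the root of F. All 10 genes were named in every comparison, and from each wider list up to 3 called genes per direction with the largest change and a mean of at least 1 CPM; genes named in one comparison were followed in others. Likeness used log2 CPM with a prior count of 2. Any pair of same-group libraries was further apart than counting noise allows (chi-square per degree of freedom 4.79 to 78.2), so none was taken for a library deposited more than once. Alternatives were RLE scaling, pan-endothelial scaling, no filter, the replicate block, fits of 6 or 9 libraries, limma 3.58.1 voom with quality weights, DESeq2 1.42.0, leaving out each library and each pan-endothelial gene, and exon length by longest transcript; leave-one-out counts of the wider lists were added after seeing the data. Figures used matplotlib 3.10.9 in Python 3.11.15.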

Additional observations from a re-analysis of the deposited data

How the results depend on the processing

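Among the 10 genes, all reversals of sign were of values not called, other than Tjp1 and Abcb1a in 3d-SN011 against vehicle. Under voom 1 of the 10 genes was called in SN011 against sham (Abcb1a), beside 1875 of all genes. Under pan-endothelial scaling the number of the 10 genes called was 2 in 3d-SN011 against sham, 1 against vehicle and 1 against SN011, beside 8224, 10196 and 8002 of all genes. That scaling gave log2 fold changes of -0.14 for Ocln in 3d-SN011 against sham; -0.54 for Ocln, -0.0145 for Tjp1 and -0.37 for Abcb1a against vehicle; and -0.56 for Ocln, -0.23 for Tjp1, -0.38 for Abcb1a and -0.23 for Plvap against SN011. In SN011 against sham it gave 0.15 for Cldn5 and 0.0124 for Pecam1, and in vehicle against sham 0.14 for Tjp1, 0.23 for Mfsd2a, 0.0929 for Cdh5, 0.15 for Pecam1, 0.19 for Plvap and 0.0769 for Vwf. By its construction it removes what the pan-endothelial genes share. Voom gave 0.0909 for Cldn5 and -0.11 for Tjp1 in SN011 against sham and -0.0044 for Ocln in SN011 against vehicle; the cause was not tested.

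Leaving out each library in turn gave 4 to 6 of the 10 genes called in 3d-SN011 against sham, 6 to 8 against vehicle, 4 to 7 against SN011 and 0 in the other comparisons. Of all genes, 18537 of which were tested with all libraries, 9242 to 11095 were called against sham, 9354 to 11047 against vehicle and 6310 to 9307 against SN011. Log2 fold changes whose sign changed then ran from -0.016 to 0.19 for Ocln in 3d-SN011 against SN011; from -0.39 to 0.0257 for Cldn5, -0.0073 to 0.15 for Ocln and -0.10 to 0.13 for Tjp1 in SN011 against sham; from -0.0331 to 0.12 for Ocln and -0.0325 to 0.11 for Abcb1a in SN011 against vehicle; and from -0.0421 to 0.11 for Ocln, -0.21 to 0.0191 for Mfsd2a and -0.48 to 0.12 for Plvap in vehicle against sham. The number of all genes called was 0 to 694 in SN011 against sham, 0 to 513 in SN011 against vehicle and 0 in vehicle against sham.

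The number of all genes called in SN011 against sham was 21, and 775 with no filter, 725 under pan-endothelial scaling, 7 with 6 libraries, 39 with 9 libraries, 1875 by voom and 638 by DESeq2. In SN011 against vehicle it was 3, and 601, 101, 5, 17, 1179 and 443 under the same settings. In vehicle against sham it was 0, and 5, 2, 16, 1, 32 and 5. The cause of these differences was not tested. For the named genes of the wider lists, 0 values changed sign; 43 of the values with a library left out and 29 under other settings were no longer past the threshold. The group differences in log2 ratio to pan-endothelial genes moved by less than the replicate spread without any 1 of the 10. Small differences, such as -0.021 for Mfsd2a in 3d-SN011 against SN011, need not have kept their sign.

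Deviations of same-numbered libraries from their group had correlations from -0.293 to 0.143. The labels state no pairing by replicate number, and with 3 libraries a group these correlations cannot exclude one. With the replicate block, 5269 genes were higher and 5055 lower in 3d-SN011 against sham, and 19 genes were called in SN011 against vehicle.

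With 3 libraries a group, intervals stay wide: that of Cldn5 in vehicle against sham ran from -1.38 to 0.11 on the log2 scale.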
